A study of Mus musculus with 8 samples.

Results

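NRF2, encoded by Nfe2l2, is the transcription factor that switches on much of the cell's defence against oxidants, and its output was followed here through 10 genes in mouse liver: Nfe2l2 itself, its inhibitor Keap1, and the targets or companion enzymes Gclc, Gclm, Nqo1, Hmox1, Txnrd1, Srxn1, Cat and Gpx1. These 10 of the 24143 genes named in the transcript tables were taken by symbol, with earlier results of these data known, and each was represented by its annotated transcript with the largest summed level. All 10 passed the filter on low values (at least 20 reads in at least 2 libraries), as did 10855 genes in all. The livers came from wild-type (WT) C57/BL6 mice that had been kept in alternating light and darkness (12 h each) for a week and then in darkness for one day. RNA of 3 animals was pooled equally for each of 8 circadian times (CT, hours of the internal day), every 6 h from CT23 to CT65. Polyadenylated RNA was sequenced in 1 library per time, so no time had a replicate, and the labels used here give neither sex nor age. Each clock phase was sampled on both days: phase CT23 by CT23 and CT47, phase CT5 by CT29 and CT53, phase CT11 by CT35 and CT59, and phase CT17 by CT41 and CT65.

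Under basal conditions the KEAP1 protein holds NRF2 in the cytoplasm and delivers it to a CUL3 ubiquitin ligase, so that NRF2 is destroyed almost as fast as it is made. Oxidants and electrophiles modify cysteines of KEAP1, newly made NRF2 escapes to the nucleus, pairs with a small MAF protein and binds antioxidant response elements in its target genes. Much of this control therefore acts on the protein, which RNA levels do not show. In the liver the targets supply glutathione, reduce quinones, break down heme and keep thioredoxin and peroxiredoxin reduced, while catalase and glutathione peroxidase remove hydrogen peroxide.

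The letters that NRF2 and MAF proteins recognise are shown first, because they are what several of the 10 genes share outside their levels. RefSeq promoter windows (GRCm38.p6, a newer build than the mm9 of the libraries) were found for 8 of the 10 genes, in 10 windows, and Gclc and Hmox1 have none in the table. Both strands of the 250 bases before each start were searched for the core of the antioxidant response element, TGACNNNGC, and for the longer NRF2-MAF site TGANTCAGC, which contains the core where its N is C. A match was found in 4 of the 8 genes. The stretches follow 5′ to 3′ on the strand of the gene, with the matching letters in capitals.
Nfe2l2: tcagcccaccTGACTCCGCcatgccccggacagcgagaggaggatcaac
Gclm: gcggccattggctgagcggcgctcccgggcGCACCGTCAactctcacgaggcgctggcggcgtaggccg
Txnrd1: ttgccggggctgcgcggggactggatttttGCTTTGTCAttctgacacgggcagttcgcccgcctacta
Srxn1: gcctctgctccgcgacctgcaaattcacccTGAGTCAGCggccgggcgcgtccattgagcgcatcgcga

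The Nfe2l2 stretch is chr2:75704865-75704913 (minus strand), and its core match lies at position -240 from the start. The Gclm stretch is chr3:122245393-122245461 (plus strand), with the core on the opposite strand at position -134. For Txnrd1 the match stands before the second of 3 annotated starts, in chr10:82859084-82859152 (plus strand), on the opposite strand at position -92. The Srxn1 stretch is chr2:152105449-152105517 (plus strand) and holds the longer site at position -45. Of all 32851 windows in the table, 10.2% held the core and 1.02% the longer site, so a match to the core alone was common. No match in the windows of Keap1, Nqo1, Cat and Gpx1 says only that these letters are not in these 250 bases.

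The CT35 library stood apart from the other 7 and touches several results below. It held 22.9 M reads against 11.7 to 13.9 M in the others, and 64.5 junction reads per 100 reads against 41.4 to 49.5. Of its reads in chosen transcripts and their introns that overlap no exon, these introns held 6.94%, against 11.04 to 12.6%. The last exons of 2123 genes were at a median log2 ratio of -0.94 to the other exons, against -0.59 to -0.34 elsewhere. Its part in the results was not tested beyond the values without it that are given beside them. Hepatocyte markers summed to between 42427 and 70460 RPKM (reads per kilobase, scaled to the depth of the library), with the highest sum at CT35. Most of that sum was Alb, with 53810 RPKM at CT35. Tat, Cps1 and Serpina1a were also highest at CT35, but Ttr was highest at CT41 and Apoa1 at CT53. Sums were 105 to 167 RPKM for the 10 Kupffer cell and macrophage markers, 52.7 to 79.1 for the 6 endothelial ones and 0.157 to 1.23 for the 2 neutrophil markers in the table. In bulk liver, fewer cells of a type and less RNA per cell cannot be told apart.

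Levels per length ran over 3 orders of magnitude among the 10 genes. Cat had a mean of 2667 RPKM over the 8 libraries (SD over times 664) and Gpx1 1456 (SD 306). Gclc followed at 82.2 (SD 22.1), Gclm at 44.6 (SD 7.56) and Nfe2l2 at 23.5 (SD 4.64). Txnrd1 at 19.1 (SD 2.26) and Srxn1 at 18.4 (SD 3.53) did not differ beyond their spread over times, and nor did Hmox1 at 8.16 (SD 1.80) and Keap1 at 8.03 (SD 1.79). Nqo1 was lowest at 2.14 (SD 0.735), from 383 reads in all. The order depends on the transcript model: in the transcripts with the most reads the means were 1609 for Cat, 22.1 for Gclm, 17.6 for Txnrd1 and 7.46 for Srxn1, so that Srxn1 lay well under Txnrd1, and Cat lay under Gpx1 at CT35, CT41, CT47 and CT53. The ranges of Nfe2l2, Txnrd1 and Srxn1 overlapped. Gclc was above Gclm in each library, but the lowest Gclc value (56.3 at CT41) lay under the highest Gclm value (58.5 at CT53).

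**Figure D1:**
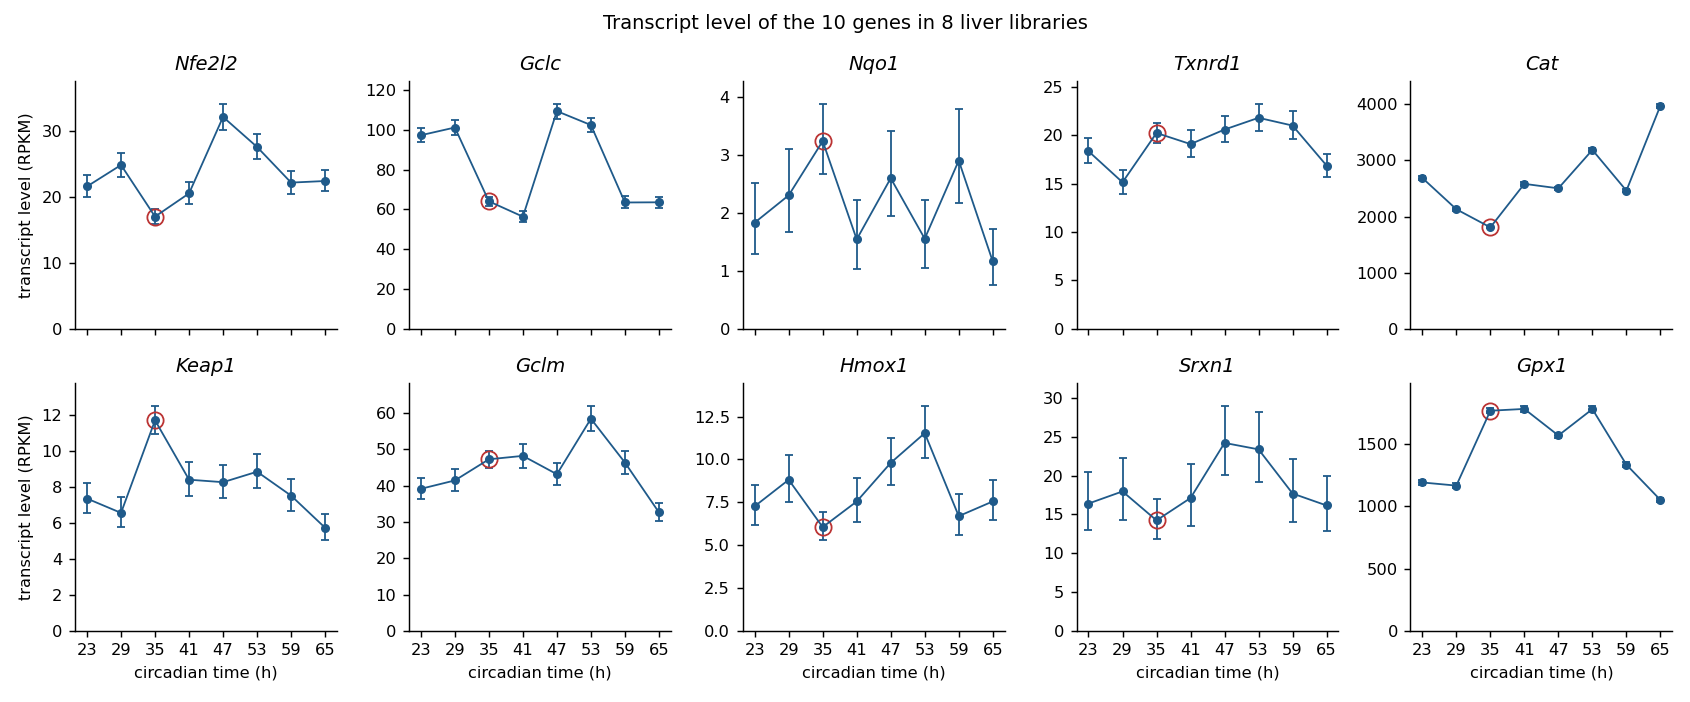
Transcript level (RPKM, y axis from 0) against circadian time (h) for each of the 10 genes. Points are single libraries, bars are exact 95% Poisson intervals that cover counting error only, and the red ring marks the CT35 library. Gclc was high at CT23, CT29, CT47 and CT53 and low at the other 4 times.

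The first question was which of the 10 genes followed the 24-h internal day. A 24-h curve was fitted to log2(RPKM + 0.5) across all genes with limma. By this test 0 of the 10 genes were called at a Benjamini-Hochberg adjusted p under 0.05, against 200 of 10855 genes (1.84%). At an unadjusted p under 0.05 it was 1 of the 10, Gclc, against 1624 genes (15.0%). With the reads recovered from the RPKM steps, edgeR's quasi-likelihood test and DESeq2 each called 1 of the 10, again Gclc, beside 276 (2.54%) and 574 (5.29%) of all genes. The log2 peak to trough of the 10 curves ran from 0.08 to 1.03 with a median of 0.43, beside a median of 0.40 over all genes tested. The spread in this test is the scatter of single libraries about the curve, and pooled animals of different times are not replicates of 1 condition.

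Nfe2l2, at chr2:75513576-75542698 (mm9, minus strand, 5 exons), was highest at CT47 (32.1 RPKM) and CT53 (27.6) and lowest at CT35 (17.01), with 20.5 to 24.8 in the other 5 libraries. The 2 libraries of phase CT23 were 21.6 and 32.1, so that 1 phase alone spanned most of the range. On the fitted curve Nfe2l2 was 1.43-fold higher at its peak, at CT1.2 (SE 1.90 h), than at its trough, with a log2 size of 0.51 (SE 0.26) and an adjusted p of 0.537 (limma). Without CT35 the size was 0.38. On both days Nfe2l2 was higher at phase CT23 than at CT11, by 0.34 and 0.54 on the log2 scale, and higher at CT5 than at CT17, by 0.27 and 0.30. Each of these 4 differences was larger than its counting error, as exact binomial 95% intervals show, but none has a replicate behind it.

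Keap1, the adaptor that marks NRF2 for destruction, lies at chr9:21034174-21043776 (minus strand, 6 exons). Its highest value was 11.7 RPKM at CT35, followed by 8.83 at CT53, and its lowest was 5.72 at CT65. The other 5 libraries lay between 6.54 and 8.39, so CT35 alone set the upper end of the range. The 24-h curve had a log2 size of 0.28 (SE 0.29) with a peak at CT9.3 and an adjusted p of 0.844 (limma), and without CT35 the peak moved to CT2.9. Keap1 was thus high in the library in which Nfe2l2 was low. Across the 8 libraries their Pearson correlation on the log2 scale was -0.31, given only as a description, since all points share libraries and depth. CT35 was the highest of the 8 libraries for 2 of the 10 genes, Keap1 and Nqo1, as for 28.8% of all genes. It was the lowest for 4 of them, Nfe2l2, Hmox1, Srxn1 and Cat, as for 18.7% of all genes.

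Gclc, the catalytic subunit of glutamate-cysteine ligase and so the rate-limiting step of glutathione synthesis, showed the largest curve of the 10. It lies at chr9:77602617-77641458 (plus strand, 16 exons). Its 4 values at phases CT23 and CT5 were 97.2 RPKM (CT23), 101 (CT29), 109 (CT47) and 102 (CT53). Its 4 values at phases CT11 and CT17 were 64.0 (CT35), 56.3 (CT41), 63.4 (CT59) and 63.5 (CT65). The groups did not overlap: all 4 libraries of phases CT23 and CT5 lay above all 4 of phases CT11 and CT17. This held for 2.51% of all genes, and for Gclc the split held on both days. The fitted peak was at CT2.2 (SE 0.80 h), 2.04-fold above the trough (log2 1.03, SE 0.21), with an unadjusted p of 0.0018 and an adjusted p of 0.0683 (limma), just short of the threshold.

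Whether Gclc passed depended on the test. Its adjusted p was 0.0403 for the mean over its transcripts, 0.0338 for the transcript with the most reads and 0.0174 with array weights (all limma), settings that called 2.99%, 3.04% and 6.49% of all genes. It was 0.0425 with edgeR and 0.00052 with DESeq2. Without its last exon the log2 size was 0.98 and the adjusted p 0.203 (limma), in a fit that called 82 of 9840 genes. Gclc was also not called with other pseudocounts, without the filter or after TMM rescaling (limma). Leaving out 1 library at a time gave log2 sizes of 0.96 to 1.06 and adjusted p from 0.0591 to 0.209 (limma), so the size moved little while the call was never made. The single contrasts did not pass either: CT23 minus CT11 was 0.69 (SE 0.21, adjusted p 0.183) and CT5 minus CT17 was 0.76 (SE 0.21, adjusted p 0.161, limma), beside 144 (1.33%) and 69 (0.636%) of all genes called. The median of all genes moved by 0.11 between CT5 and CT17 in the RPKM as given. After TMM rescaling that median was 0.00 and the Gclc difference was 0.63. None of the 10 genes passed either contrast in this fit.

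Reads across splice junctions, which the deposited tables count separately but in the same libraries, gave the same picture for Gclc. In CPM (junction counts scaled to each library's junction depth, with TMM), Gclc had 442 (CT23), 480 (CT29), 458 (CT47) and 436 (CT53), against 243 (CT35), 261 (CT41), 259 (CT59) and 312 (CT65). Again the 4 high libraries lay above the 4 low ones, a split that was not counted over all genes in this readout. The curve was 2.12-fold with a peak at CT1.6 (log2 1.08, adjusted p 0.0224, edgeR), and Gclc was the only 1 of the 10 genes called there, against 194 of 8602 genes (2.26%). Its CT23 minus CT11 difference of 0.84 was also called (adjusted p 0.0480, edgeR), as for 1.76% of genes. The 24-h call was lost without any 1 of CT23, CT29, CT41, CT47, CT53 or CT59 (adjusted p 0.0518 to 0.0934) and kept without CT35 (0.0159) or CT65. The log2 size stayed between 1.02 and 1.18.

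Intron reads, which stand for RNA not yet spliced, were also followed for Gclc over 36528 intron bases. Intron levels were 2.87 RPKM at CT23 and 2.66 at CT47, and the other 6 libraries ran from 0.913 (CT35) to 1.72 (CT53). Phase CT23 thus held the 2 highest libraries, as for 6.8% of the 5809 genes tested in introns. At phase CT5, where the transcript was as high as at CT23, the intron level was 1.45 and 1.72. The intron curve peaked at CT23.5 (SE 1.16 h) with a log2 size of 1.22 (SE 0.37) and an adjusted p of 0.223 (limma), while 124 genes (2.13%) were called. The difference between the intron peak and the transcript peak was not tested. Introns made up 2.96 and 2.44% of the transcript level at phase CT23, 1.44 and 1.68% at CT5, 1.43 and 2.24% at CT11, and 2.10 and 2.57% at CT17.

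**Figure D2:**
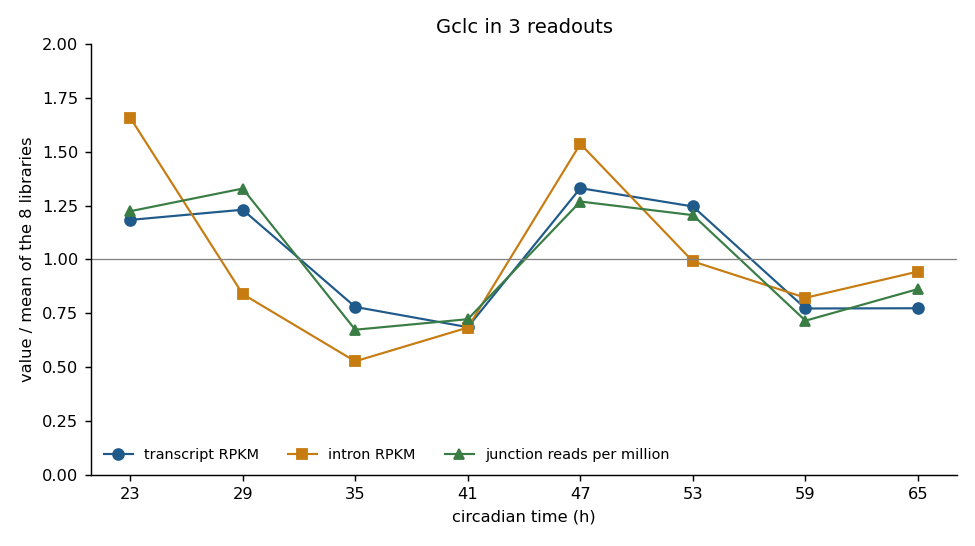
Gclc in transcript RPKM, intron RPKM and junction reads in CPM, each divided by its mean over the 8 libraries (y axis), against circadian time (x axis, h). Transcript and junction values were high at 4 of 8 times, while intron values stood out at CT23 and CT47.

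Gclm, the modifier subunit that raises the affinity of the same ligase, gave another pattern in its chosen model. It lies at chr3:121948510-121969566 (plus strand, 7 exons) and ranged from 32.7 RPKM at CT65 to 58.5 at CT53, with the other 6 libraries between 39.1 and 48.2. Its highest and lowest libraries were thus both on the second day, 12 h apart. The log2 curve size was 0.36 (SE 0.26) with a peak at CT7.1 and an adjusted p of 0.729 (limma). The Pearson correlation of Gclm with Gclc over the 8 libraries was 0.11 in the chosen models and 0.64 in those with the most reads, again a description only. From CT53 to CT59, Gclc went from 102 to 63.4 RPKM and Gclm from 58.5 to 46.4, so the ratio of the subunits was not the same in both libraries. In a transcript model of 4841 bases, with a longer last exon, the Gclm level was 18.03 to 26.2 RPKM. CT65 and CT53 were again its lowest and highest libraries, with the fitted peak at CT4.5.

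Nqo1, the quinone reductase often used as a marker of NRF2 activity, was weakly expressed (chr8:109912125-109927105, minus strand, 6 exons). Its values were 3.24 RPKM at CT35, 2.90 at CT59, 2.60 at CT47 and 2.30 at CT29, the 4 highest, and 1.83 at CT23, 1.55 at CT53, 1.54 at CT41 and 1.16 at CT65, the 4 lowest. The CT65 value rests on 25 reads, which gives an exact 95% Poisson interval of 0.751 to 1.71. Beside the 24-h terms, a 12-h term (phases CT23 and CT11 against CT5 and CT17) was 0.56 (SE 0.17) with an unadjusted p of 0.0073 and an adjusted p of 0.589 (limma). Sampling every 6 h allowed only this contrast, so a 12-h curve that peaks midway between the sampled phases would not show. No gene of 10855 passed that test (0%), 866 had an unadjusted p under 0.05 (7.98%), and Nqo1 was the only such gene among the 10. By edgeR no gene passed it, and by DESeq2 13 did, none of them among the 10.

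Hmox1, heme oxygenase 1, which opens the heme ring and is strongly expressed in macrophages that clear red cells, lies at chr8:77617517-77624491 (plus strand, 5 exons). It was highest at CT53 (11.5 RPKM), CT47 (9.80) and CT29 (8.81) and lowest at CT35 (6.05) and CT59 (6.69). Both libraries of phase CT11 were therefore under all others. That pattern was not counted over all genes, and CT35 was the lowest library for 18.7% of them. The log2 curve size was 0.55 (SE 0.25) with a peak at CT2.1 and an adjusted p of 0.489 (limma). The summed Kupffer cell and macrophage markers were 158 RPKM at CT53 and 132 at CT47, against 123 at CT35 and 130 at CT59. Their highest sum, 167 at CT29, came with the third highest Hmox1 value, whereas their second highest, 159 at CT41, came with 7.55 RPKM of Hmox1, and their part in Hmox1 was not tested.

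Txnrd1, the cytosolic thioredoxin reductase, had the smallest ratio of highest to lowest level in the chosen models (chr10:82321951-82360469, plus strand, 14 exons). Its values ran from 15.1 RPKM at CT29 to 21.8 at CT53, a ratio of 1.44, and the log2 curve size was 0.08 (SE 0.25) with an adjusted p of 0.978 (limma) and an undetermined peak time (SE 11.1 h). CT29 and CT53 are the same phase on different days, so the extremes of Txnrd1 fell 24 h apart. Without its last exon Txnrd1 ran from 37.4 to 70.3 RPKM, with a log2 size of 0.49 (adjusted p 0.691, limma). In junction reads its log2 size was 0.28, above the 0.13 of Gclm.

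Srxn1, sulfiredoxin, which repairs over-oxidised peroxiredoxins, lies at chr2:151931252-151935058 (plus strand) in the chosen model, a transcript of 375 bases whose first exon held 0 reads. In that model it was highest at CT47 (24.2 RPKM) and CT53 (23.4) and lowest at CT35 (14.2), with 16.1 to 17.96 elsewhere. The log2 curve size was 0.43 (SE 0.26) with a peak at CT1.8 and an adjusted p of 0.629 (limma). The full-length model of 2583 bases gave 9.97 RPKM at CT47, 9.49 at CT53, 9.32 at CT35 and 6.72 to 8.52 in the rest. CT47 and CT53 were high in both models, but CT35 went from the lowest to the third highest. Junction reads of Srxn1, 240 in all, had a log2 size of 1.15 with an unadjusted p of 0.0275 and an adjusted p of 0.269 (edgeR).

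Cat, catalase, which splits hydrogen peroxide in peroxisomes, had the highest mean of the 10 genes, and its values depended on which exons were read. The chosen model, at chr2:103294752-103325282 (minus strand), has 779 bases in 6 exons. The junction joining its exons 3 and 4 had 1 read in the 8 libraries together. Inside that intron, 2 junctions of the full-length transcript had 48260 and 53024 reads. Its level was thus read from exons that overlap those of the full-length transcript. The chosen model was highest at CT65 (3977 RPKM) and CT53 (3188) and lowest at CT35 (1807), with 2130 to 2688 in the other 5 libraries. The log2 curve size was 0.42 (SE 0.31) with a peak at CT20.0 and an adjusted p of 0.737 (limma).

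The last exon of that model, chr2:103294752-103294978 (227 bases, 151797 reads), and its other 5 exons did not move together. The last exon was 11525 RPKM at CT65, 7764 at CT53, 6824 at CT23 and 6285 at CT41, and 2961 at CT35, its lowest. The other exons were 2293 at CT65 and 2425 at CT23, and 4043 at CT47, 3406 at CT53 and 3325 at CT35. At CT65 the last exon was thus at its highest and the others were at their lowest. The log2 ratio of last to other exons ran from -0.17 at CT35 to 2.33 at CT65 for Cat, whereas its median over 2123 genes ran from -0.94 to -0.34. Without the last exon the fitted peak of Cat was at CT4.6 (log2 0.32, SE 0.30, adjusted p 0.814, limma).

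**Figure D3:**
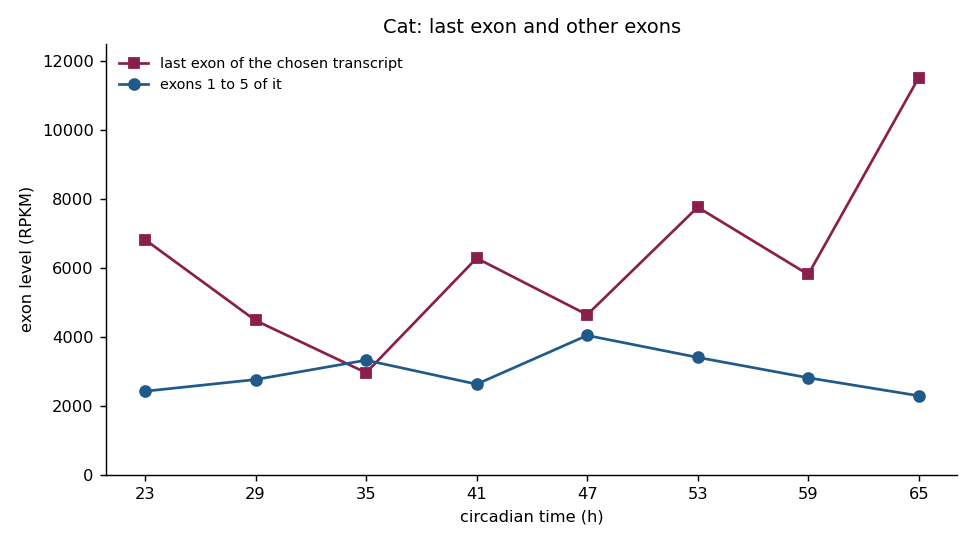
Level (RPKM, y axis from 0) of the last exon and of the other 5 exons of the chosen Cat transcript against circadian time (x axis, h), 1 library per point. The last exon ran from 2961 at CT35 to 11525 at CT65, and the other exons stayed between 2293 and 4043.

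The full-length Cat transcript has 13 exons, and the last exon of the chosen model lies within its exon 13 (918 bases). Exon 13 varied 3.72-fold between CT35 and CT65. Exon 9 varied 1.27-fold, with its lowest value also at CT35. Exons 1 and 2 varied 1.99-fold and 1.94-fold, and there CT65 was lowest and CT47 highest. Junction reads of Cat, which count only reads that cross a splice, ran from 3681 CPM at CT35 to 5727 at CT29 (log2 curve size 0.40, adjusted p 0.602, edgeR).

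Gpx1, the main cytosolic glutathione peroxidase, lies at chr9:108241607-108242671 (plus strand, 2 exons). It formed a high group of CT41 (1783 RPKM), CT53 (1781), CT35 (1768) and CT47 (1569) and a low group of CT59 (1335), CT23 (1192), CT29 (1166) and CT65 (1051). Each phase thus had 1 library in each group, and the curve was flat (log2 0.18, SE 0.31, adjusted p 0.936, limma). The intron of Gpx1, 218 bases long, was at 13.0% of the transcript level at CT35 and at 27.0 to 36.2% in the other 7 libraries. CT35 was the lowest library in the introns of 6 of the 7 genes that could be tested there, Keap1 being the exception, as for 57.4% of all genes.

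**Figure D4:**
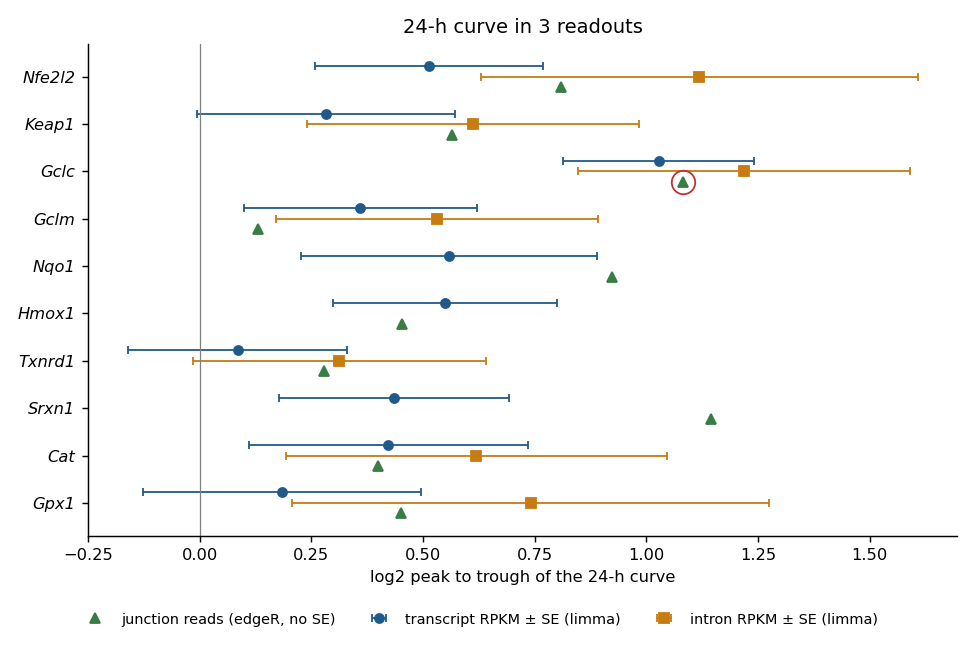
Log2 peak to trough of the 24-h curve (x axis) for the 10 genes in transcript RPKM, intron RPKM (7 genes) and junction reads. Bars are standard errors, which the junction fit does not give, and the red ring marks the only call, Gclc in junction reads.

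Apart from Gclc, the 3 readouts of a gene gave different sizes, and no call. In junction reads Nfe2l2 had a log2 size of 0.81 with a peak at CT22.9 and an unadjusted p of 0.0094 (adjusted p 0.157, edgeR). Its 3 introns that overlap no exon held 264 reads over 1720 bases. They gave 1.12 (SE 0.49) with a peak at CT22.4 and an adjusted p of 0.610 (limma), and 0.38 without CT35. In introns 0 of the 7 genes tested were called by limma, and Gclc was the 1 gene at an unadjusted p under 0.05, against 622 of 5809 genes (10.7%). The contrasts in introns called none of the 7 either, against 1.62% of genes for CT23 minus CT11 and 0.603% for CT5 minus CT17 (limma). The Gclc intron difference of CT23 minus CT11 was 1.21 (SE 0.37, adjusted p 0.115).

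A further fit set the second day against the first within phases, to see whether time in darkness went with a shift. No gene of the 10 passed, and none of 10855 did (0%, limma), with 257 (2.37%) at an unadjusted p under 0.05 and none of the 10 among them. By edgeR no gene passed and by DESeq2 1 did, none of the 10. The largest difference among the 10 was that of Cat, 0.39 higher on the second day (SE 0.20, unadjusted p 0.0719, adjusted p 0.9999, limma).

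Other genes of the pathway were taken from 4 lists. Of the 11 NRF2 partners and regulators all were tested and 1 was called (1.84% over all genes), Maff, a small MAF protein. It stood at 2.02, 2.23 and 1.65 RPKM at CT35, CT53 and CT59, and at 0.30 to 0.86 in the other 5 libraries. The curve was 3.24-fold with a peak at CT9.2 (adjusted p 0.0330, limma), and was not called without CT23, CT35, CT47, CT59 or CT65 (adjusted p 0.0521 to 0.113). Bach1, a repressor that competes with NRF2 for the same elements, was called in junction reads only (log2 1.81, peak at CT9.4, adjusted p 0.0255, edgeR), and had an adjusted p of 0.313 in transcript RPKM (limma). It is named here after its values were seen. Sqstm1, the p62 receptor that removes KEAP1 by autophagy, had a mean of 170 RPKM and an adjusted p of 0.852, and the related factor Nfe2l1 had 53.6 RPKM and 0.552 (limma).

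Of 34 other NRF2 targets in glutathione, drug and NADPH metabolism, 30 were tested and 2 called in transcript RPKM, the same 2 as in junction reads, against 1.84% and 2.26% of all genes. Osgin1, an oxidative-stress induced growth inhibitor, fell from 1178 RPKM at CT23 to 148 at CT35 and from 549 and 643 at CT47 and CT53 to 328 and 312 at CT59 and CT65. Its curve was 4.45-fold with a peak at CT1.0 (adjusted p 0.0390, limma; 0.0228, edgeR on junctions), close in time to that of Gclc. Abcc2, the canalicular pump that exports glutathione conjugates into bile, was 84.3 to 109 RPKM at phases CT5 and CT11 and 40.3 to 51.0 at the other phases. It peaked at CT8.3, 2.65-fold above its trough (adjusted p 0.0252, limma; 0.0233, edgeR on junctions).

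Both calls were near the threshold, and after TMM rescaling Abcc2 had an adjusted p of 0.0615 and Osgin1 of 0.0645 (limma). Osgin1 was not called without CT23, CT29, CT41, CT53 or CT65 (adjusted p up to 0.130), nor Abcc2 without any 1 library other than CT35 (up to 0.113). The conjugating enzymes Gstm1 (mean 2320 RPKM, adjusted p 0.528) and Gsta3 (mean 1474 RPKM, adjusted p 0.407) were the most abundant genes of the list that were not called.

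None of 8 tested glutathione cycle genes and none of 20 tested peroxide and superoxide enzymes was called by limma, with 2 and 1 at an unadjusted p under 0.05, or in junction reads by edgeR. With array weights (limma) or DESeq2, 1 of the peroxide and superoxide enzymes was called. In the first list Hagh (168 RPKM, adjusted p 0.787) and Glo1 (62.4 RPKM, 0.729), which together detoxify methylglyoxal with glutathione, were the most abundant. In the second they were Mgst1 (3183 RPKM, adjusted p 0.762) and Selenop (2843 RPKM, 0.487), the selenium carrier that the liver secretes. The median log2 peak to trough was 0.51, 0.47, 0.47 and 0.38 in the 4 lists in the order given, beside 0.40 over all genes.

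**Figure D5:**
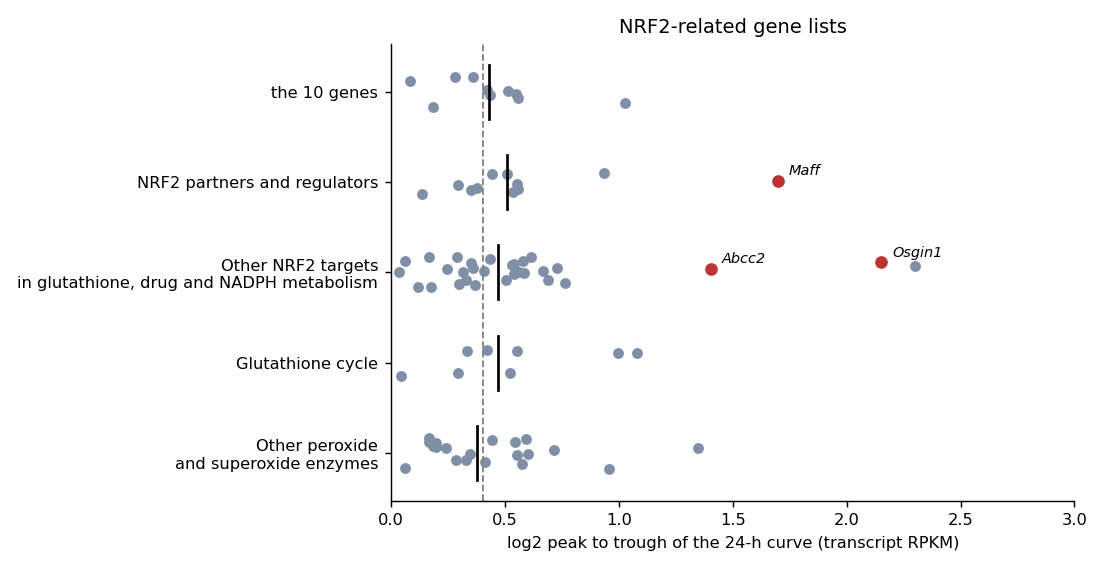
Log2 peak to trough of the 24-h curve (x axis, transcript RPKM) for the 10 genes and the 4 lists, 1 point per gene, with red points called, black bars at each list's median and the dashed line at the median of all genes. Maff, Abcc2 and Osgin1 were called, and the medians of 0.51, 0.47, 0.47 and 0.38 lay near the 0.40 of all genes.

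Over the 8 libraries the level of Nfe2l2 was most like that of Stat3 (Pearson r 0.96), a transcription factor of cytokine signalling, followed by Srxn1 (0.94) and Nfe2l1 (0.92), among 5946 tested genes with a mean of at least 5 RPKM. The likeness to Srxn1 rests on its short model, and with the transcripts that hold the most reads it was 0.38. Hmox1 was at 0.87 and Gclc at 0.74. Gclc was most like Kynu, kynureninase (0.98), and the fibrinogen chain genes Fgg (0.97) and Fga (0.96). These are descriptions over 8 points that share libraries and depth.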

How the data were processed

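Liver polyA RNA from 8 pools was analysed, 1 library per circadian time. The submitters' processing notes name mm9 as the build, and no source used here names the quantifying program. The deposited transcript tables hold, per the file headers, a lower and an upper value (min, max) for transcripts, exons and introns, and these values behave as RPKM. The lower one was used, and 100% of checked transcript values of up to 1000 reads were whole reads within 0.1 read (99.9988% at CT65 before allowing for rounding), which gave each library's depth. The deposited junction tables hold counts of reads per splice junction, named as RUM high-quality junctions per the file headers. Strand settings are not given, so antisense reads cannot be separated. No exon base of the 10 chosen transcripts was shared with another named gene, and transcript models without a gene name were not checked.

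RPKM and intron RPKM (pseudocounts 0.5 and 0.1) were fitted on the log2 scale with limma 3.58.1 (mean trend, robust) and junction counts with edgeR 4.0.16 (TMM, quasi-likelihood), for genes with at least 20 reads in at least 2 libraries. Fold changes on the log2(RPKM + 0.5) scale understate changes of low genes. DESeq2 1.42.0 and other choices were alternatives. P-values were adjusted over all genes by Benjamini-Hochberg at 0.05. Intervals are exact at 95% and cover counting error only. Scripts were tested on simulated data. The members and lists were chosen with earlier results of these data known. Named genes were the 10 members, up to 4 called and up to 2 abundant uncalled genes per list, and the 3 genes most like Nfe2l2 and each called member.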

Additional observations from a re-analysis of the deposited data

Results flagged for a closer look

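In the chosen models of 4 of the 10 genes a contrast between phases went one way on the first day and the other way on the second. Each difference was larger than its counting error (exact binomial 95% intervals). With 1 library per time the difference between the days was not tested. Such reversals were not counted over all genes, so the 4 of 10 has no share to be set against. Keap1 at CT5 minus CT17 was -0.36 on the log2 scale on the first day and 0.63 on the second. Gclm at CT5 minus CT17 was -0.22 and then 0.84. In the Gclm model of 4841 bases there was no reversal: CT29 (23.4 RPKM) was above CT41 (20.9), and CT53 (26.2) above CT65 (18.03). Txnrd1 at CT5 minus CT17 was -0.33 and then 0.37. Gpx1 was -0.61 and then 0.76 at CT5 minus CT17, and -0.57 and then 0.23 at CT23 minus CT11, the latter with CT35 as a first-day library. For Gclc, Nfe2l2, Hmox1 and Srxn1 all 4 differences were above 0 in the chosen models, though both first-day intervals of Hmox1 and of Srxn1 included 0. In the full-length Srxn1 model CT23 (6.72 RPKM) was under CT35 (9.32), while CT47 (9.97) was above CT59 (8.52).

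Junction reads outside every named transcript model of the gene were above the 3 counts that a count of 0 allows in 8 genes. Transcript models without a gene name were not checked for these junctions. Such reads were not counted over all genes, so the 8 genes have no share to be set against. There were 285 such reads for Cat (0.109% of its junction reads), 133 for Gpx1, 79 for Gclc, 23 for Txnrd1, 15 for Nfe2l2, 13 for Gclm, 9 for Keap1 and 5 for Srxn1. In Gpx1, 82 of them used an acceptor that makes the intron 221 bases long where the annotated one is 218, beside 40754 reads in the models, and they were found in all 8 libraries (7 to 16 reads). Those of Cat were spread over 147 junctions, the most used of which had 14 reads.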

How the results depend on the processing

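Of 199 alternative values for the 24-h curves of the 10 genes, 188 kept their direction and their side of the threshold, 5 brought Gclc past it, and 6 reversed. The count of called members rose from 0 to 1 (Gclc) for the 24-h component with the mean over all transcripts, the transcript with the most reads, edgeR, DESeq2 and array weights, and for CT23 minus CT11 with DESeq2 and array weights. In junction reads the count was 0 to 1 when 1 library was left out. Reversed were Keap1 without CT35 (0.15), Txnrd1 with TMM (0.11), equal medians (0.12), edgeR (0.10) and DESeq2 (0.10), Cat without its last exon (0.32), Hagh without CT35 (0.070) and Mgst1 without CT29 (0.49). With 1 library left out the values ran from 0.15 to 0.45 for Keap1, 0.070 to 0.79 for Hagh and 0.41 to 0.92 for Mgst1. The cause was not tested. The transcript with the most reads and the exons other than the last were chosen as alternatives after seeing the data.

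Over all genes the 24-h calls were 200, and 25 without a filter, 325 with the mean over transcripts, 349 with the transcript of most reads, 82 without last exons, 574 with DESeq2, 705 with array weights and as few as 84 with 1 library left out (CT59). CT23 minus CT11 had 144 calls (24 without a filter, 234, 75, 358 and 620 for most reads, no last exons, DESeq2 and array weights), and CT5 minus CT17 had 69 (0, 138, 15, 206 and 107 for the same 5 settings, 110 with the mean over transcripts). Leaving out 1 library gave as few as 32 and 5 of these. Introns had 124 calls and 0 without a filter. Junction reads had 194, 388 with DESeq2, 649 without a filter and 103 without CT23. The list of partners and regulators had 0 to 2 calls, that of other targets 0 to 3, that of peroxide and superoxide enzymes 0 to 1 and the glutathione cycle 0.

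No paired analysis was possible because the labels carry no replicate numbers; the comparison of days within phases is blocked by phase only. Counting error limits Nqo1, and in introns too few reads clear of exons left Nqo1 and Hmox1 untested. The single intron of Srxn1 overlaps exons of another model and was left out.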
